A study of Mus musculus with 2 samples.

Results

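The 7 genes described here sense sterols and control the LDL receptor and sterol synthesis, and they were measured in single liver cells of mice on chow or on a diet that models NASH (non-alcoholic steatohepatitis). The members were taken by gene symbol: Srebf1, Srebf2, Scap, Insig1, Insig2, Mylip and Stard4, which are 7 of the 31053 genes in the deposited matrices. All 7 were found in both libraries.

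Cells came from livers of C57BL/6 mice that had eaten chow, or a NASH diet rich in fructose, fat and cholesterol, for 6.5 weeks. Livers were digested with collagenase, and Percoll steps were used to recover non-parenchymal cells and hepatocytes of several densities. The sources used here do not give the number, sex or age of the mice behind each library. With only 1 library for chow and 1 for the NASH diet (the NASH library), nothing could be tested between diets or set against a spread between replicates, and diet and library cannot be told apart.

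The chow library held 71635757 unique molecular identifiers (UMIs, each 1 captured RNA molecule) over 7359 barcodes, and the NASH library 39440182 over 5881, with 69 barcodes shared. After filtering, 4041 and 2305 barcodes were kept. Hepatocyte-like cells were 2094 in chow, with 46963517 UMIs and a median of 23522 per cell, and 1138 in the NASH library, with 22685661 and a median of 19750.5. All 10 hepatocyte markers were detected in them, at summed levels of 69694 and 75893 CPM (the UMIs of a gene scaled to a common total of 1e6 UMIs in each class). Of markers of other cells in them, erythroid genes summed to 44.8 and 204 CPM, neutrophil genes to 0.618 and 10.3 CPM and cholangiocyte genes to 157 and 108 CPM, and their part in the results was not tested. Their median mitochondrial share was 18.0% in chow and 23.1% in the NASH library. The clusters that held this class differed between the libraries. Clusters 0, 2, 4, 5 and 6 were of chow cells but for 9 or fewer, clusters 10, 16 and 17 of NASH diet cells but for 2 or fewer, cluster 12 held 74 NASH diet and 16 chow cells, and cluster 15 held 7 chow and 8 NASH diet cells. Levels below are CPM with exact 95% Poisson intervals in parentheses, and shares of cells have exact binomial ones. Both cover counting error only.

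Sterol sensing works through a transport step. The sterol regulatory element binding proteins SREBP-1 and SREBP-2, encoded by Srebf1 and Srebf2, are made as membrane proteins of the endoplasmic reticulum. The escort protein SCAP carries them to the Golgi when membrane sterol is low, and proteases there free the part that enters the nucleus. INSIG1 and INSIG2 hold SCAP back when sterol is high. SREBP-2 mainly drives genes of sterol synthesis and uptake, while the liver form of SREBP-1 mainly drives fatty acid synthesis. Insig1 is itself an SREBP target, whereas Insig2 in liver is known for repression by insulin. Mylip, also called IDOL, is a ubiquitin ligase induced by the oxysterol receptors LXR that sends the LDL receptor to degradation. Stard4 carries cholesterol between membranes and is an SREBP-2 target.

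The windows at the starts of 3 members are shown because Srebf2 and Insig1 were lower and Srebf1 higher in the NASH library. They run from 250 bases before to 50 after an annotated start, on the gene's strand, from RefSeq on build GRCm38.p6, which matches the mm10 build of the submitters' processing notes. Capitals mark 3 motifs searched on both strands: TCACNCCA (an SREBP element), CCAAT (bound by NF-Y) and CACGTG (an E-box). Srebf2 lies on the plus strand at chr15:82147019-82147318, Insig1 on the plus strand at chr5:28071162-28071461, and the Srebf1 window, the third of 3 listed starts, on the minus strand at chr11:60210422-60210721.
Srebf2: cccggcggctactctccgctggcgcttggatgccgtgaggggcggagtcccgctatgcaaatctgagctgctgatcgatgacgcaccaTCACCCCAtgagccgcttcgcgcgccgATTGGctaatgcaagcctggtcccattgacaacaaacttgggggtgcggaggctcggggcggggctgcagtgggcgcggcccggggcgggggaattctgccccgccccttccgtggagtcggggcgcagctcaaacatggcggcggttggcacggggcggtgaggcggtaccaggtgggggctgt
Insig1: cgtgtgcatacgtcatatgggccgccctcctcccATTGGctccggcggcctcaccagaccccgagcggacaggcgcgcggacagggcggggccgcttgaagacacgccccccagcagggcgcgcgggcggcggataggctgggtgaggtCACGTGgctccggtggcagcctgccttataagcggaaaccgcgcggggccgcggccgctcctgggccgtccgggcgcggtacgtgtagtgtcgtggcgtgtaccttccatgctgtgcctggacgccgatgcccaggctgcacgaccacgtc
Srebf1: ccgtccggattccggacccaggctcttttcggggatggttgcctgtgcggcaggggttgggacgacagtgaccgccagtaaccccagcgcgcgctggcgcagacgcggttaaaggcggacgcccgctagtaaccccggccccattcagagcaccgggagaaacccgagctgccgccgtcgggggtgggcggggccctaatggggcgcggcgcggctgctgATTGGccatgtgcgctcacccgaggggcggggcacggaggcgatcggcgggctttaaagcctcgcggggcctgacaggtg

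The Srebf2 window held TCACCCCA, which begins 162 bases before the start, and a CCAAT box on the opposite strand at 135 bases before it. A match to TCACNCCA was found in 4.36% of 32851 windows of the same length. Among 11 starts listed for 6 members, the Srebf2 start was the only 1 with that match. The Insig1 window held an opposite-strand CCAAT box and CACGTG, the latter 101 bases before the start. CACGTG was present in 7.15% of all windows and at 3 of the 11 starts, of which a pair belong to Scap and overlap each other. CCAAT was present in 37.4% of all windows and at 6 of the 11 starts, among them the Srebf1 start shown, 30 bases before it. The GC box GGGCGG, not marked, was at 9 of the 11 starts and in 35.7% of windows. A match is a description of letters, and which starts were used was not measured by these 3′ counts.

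In hepatocyte-like cells the NASH library had lower Insig1 and Srebf2 than chow, higher Srebf1, and Scap at a level close to that in chow. Insig2 was lower by a smaller factor, with a log2 ratio of −0.20 (−0.25 to −0.15) without the pseudocount, and differed with lobule position. Called here means a ratio past 2-fold, on the scale of CPM plus a pseudocount of 5. Of the 6 members with at least 10 UMIs, 2 were lower by that rule, against 1.08% of 12335 genes, and 0 were higher, against 1.35%. The median log2 ratio of the 6 members was −0.40, beside 0.07 over all genes. Mylip had too few UMIs to enter.

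**Figure D1:**
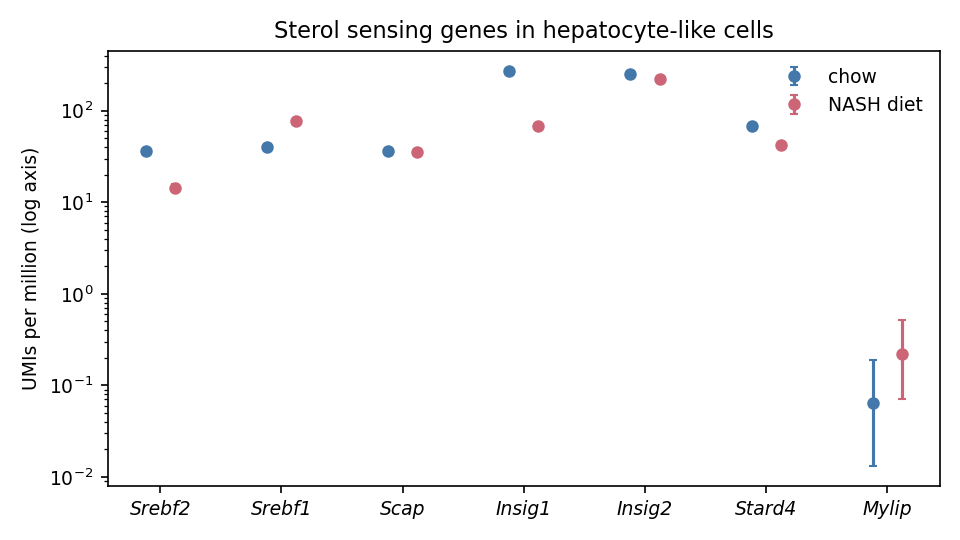
CPM (log axis) of each member summed over the hepatocyte-like cells of each library, with exact 95% Poisson intervals, 1 library per diet. Insig1 and Srebf2 sit lower in the NASH library and Srebf1 higher, while both Mylip points lie below 1 CPM.

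Of the transcription factors, Srebf2 (ENSMUSG00000022463, chromosome 15, 82147181 to 82205379, plus strand) had 1722 UMIs in chow against 325 in the NASH library. Its level was 36.7 CPM (35.0 to 38.4) and 14.3 CPM (12.8 to 16.0), intervals that do not overlap. The log2 ratio was −1.11, a 2.16-fold lower level on the pseudocount scale. With a pseudocount of 20 CPM it was −0.72, and as a mean over cells −0.98, both short of 2-fold. With a pseudocount of 1 CPM it was −1.30, and without a pseudocount −1.36 (−1.53 to −1.18). In cells thinned to 5000 UMIs each, 16.9% of 1845 chow cells and 7.12% of 1054 NASH diet cells had a Srebf2 UMI (50.8% and 22.5% unthinned). Thinning left out 249 shallower chow cells and 84 of the NASH library.

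Srebf1 (ENSMUSG00000020538, chromosome 11, 60199089 to 60222581, minus strand) went the other way. It had 1884 UMIs in chow against 1737 in the NASH library, or 40.1 CPM (38.3 to 42.0) and 76.6 CPM (73.0 to 80.3). The log2 ratio of 0.85 fell short of the 2-fold rule, and the mean over cells gave 1.22, past it. That mean gives every cell the same weight, whatever its depth. Among the cells were 74 NASH diet cells of cluster 12, with a median of 4104 UMIs and Srebf1 at 445 CPM. Their part in the value of 1.22 was not tested. With counts summed over clusters 0, 2, 6, 10 and 16 only, the log2 ratio was 0.81. Counts at the 3′ end do not separate the Srebf1 isoforms. In thinned cells the share with a Srebf1 UMI was 16.9% in chow and 25.4% in the NASH library (50.4% and 61.2% unthinned). Per Srebf1 UMI there were 0.914 Srebf2 UMIs (0.856 to 0.976) in chow and 0.187 (0.166 to 0.211) in the NASH library.

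The escort Scap (ENSMUSG00000032485, chromosome 9, 110333288 to 110384950, plus strand) differed least. It had 1693 and 795 UMIs, or 36.0 CPM (34.4 to 37.8) in chow against 35.0 CPM (32.7 to 37.6) in the NASH library, and these intervals overlap. The log2 ratio of −0.04 had an exact interval of −0.16 to 0.08 without the pseudocount. In thinned cells 16.2% and 16.0% had a Scap UMI (50.5% and 44.7% unthinned).

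Insig1 (ENSMUSG00000045294, chromosome 5, 28071363 to 28078662, plus strand) had the largest difference of the members. It had 12679 UMIs in chow against 1537 in the NASH library, or 270.0 CPM (265 to 275) and 67.8 CPM (64.4 to 71.2). The level in chow was 3.78 times that in the NASH library on the pseudocount scale, a log2 ratio of −1.92. An Insig1 UMI was found in 68.5% of thinned chow cells (66.3 to 70.6) and in 28.0% of thinned NASH diet cells (25.3 to 30.8). In the unthinned cells these shares were 88.3% and 62.5%.

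Insig2 (ENSMUSG00000003721, chromosome 1, 121304353 to 121332589, minus strand), the other anchor of SCAP, had 11936 and 5020 UMIs. Its level was 254 CPM (250 to 259) in chow against 221 CPM (215 to 227) in the NASH library, a log2 ratio of −0.20. The share of thinned cells with an Insig2 UMI was 66.4% and 60.6% (88.9% and 86.1% unthinned). Per Insig2 UMI there were 1.06 Insig1 UMIs (1.04 to 1.09) in chow and 0.306 (0.289 to 0.324) in the NASH library. The ratio compares libraries only, since it depends on how well each transcript is captured.

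Stard4 (ENSMUSG00000024378), the sterol carrier, had 3170 UMIs in chow against 965 in the NASH library. Its level was 67.5 CPM (65.2 to 69.9) and 42.5 CPM (39.9 to 45.3), and the log2 ratio of −0.61 fell short of 2-fold. In thinned cells 27.0% and 18.2% had a Stard4 UMI (67.1% and 49.2% unthinned). Stard4 was thus lower by a smaller factor than Insig1, and there were 0.250 Stard4 UMIs per Insig1 UMI (0.240 to 0.260) in chow and 0.628 (0.579 to 0.681) in the NASH library.

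Mylip (ENSMUSG00000038175, chromosome 13, 45389742 to 45412022, plus strand) was hardly detected in hepatocyte-like cells, with 3 UMIs in chow and 5 in the NASH library. These are 0.0639 CPM (0.0132 to 0.187) and 0.220 CPM (0.0716 to 0.514). Their log2 ratio without a pseudocount, 1.79, had an interval of −0.58 to 4.47, so no direction was detectable at this depth. After thinning to 5000 UMIs, 0 of 1845 chow cells had a Mylip UMI, which, taking 3 counts as the limit that a 0 allows, leaves up to 0.163% of cells with a UMI at that depth. In the NASH library 3 of 1054 thinned cells had one, or 0.285%. Unthinned, 3 chow cells (0.143%) and 4 NASH diet cells (0.351%) had one. Endothelial markers summed to 3.90 and 7.05 CPM in the same cells, and their part in these few Mylip UMIs was not tested.

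Mylip was detected mainly outside hepatocytes. Endothelial-like cells, with all 10 endothelial markers detected, numbered 44 in chow and 36 in the NASH library, at medians of 5308 and 5282 UMIs. They held 99 Mylip UMIs in chow, 430.2 CPM (350 to 524), and 187 in the NASH library, 879 CPM (758 to 1015). The log2 ratio was 1.02, in a class where 6.28% of 6403 genes were at least 2-fold higher and 8.17% at least 2-fold lower. A Mylip UMI was seen in 29 of the 44 chow cells and 30 of the 36 NASH diet cells. Thinned to 1000 UMIs, the share was 39.0% (24.2 to 55.5) of 41 chow cells and 60.0% (42.1 to 76.1) of 35 NASH diet cells, and the intervals overlap.

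The 2-fold mark for Mylip in endothelial-like cells depended on how cells were chosen. A gate on the endothelial markers gave 426 CPM in 44 chow cells and 762 CPM in 41 NASH diet cells, a log2 ratio of 0.83. The class as first clustered gave 0.85, and leaving out the cell with most Mylip UMIs in each library 0.98. Cholangiocyte markers summed to 0 CPM in the chow class and 766 CPM in the NASH diet class, where 8 of 8 were detected, and their part in the result was not tested. Hepatocyte markers summed to 3346 and 3258 CPM. From the Alb level, hepatocyte RNA would account for 0.0017 and 0.0070 CPM of Mylip there, so those levels are not hepatocyte background.

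Mylip was next highest in mesenchymal-like cells, with 304 CPM (224 to 403) in 13 chow cells and 399 CPM (328 to 481) in 17 NASH diet cells. In chow the endothelial and mesenchymal intervals overlap, and in the NASH library they do not. The mesenchymal class also carried endothelial markers, at 5835 and 6159 CPM, and in chow phagocyte markers at 8160 CPM, whose part was not tested. Mononuclear phagocyte-like cells had 96.8 CPM (68.5 to 133) in 50 chow cells and 197 CPM (118 to 307) in 24 NASH diet cells. In that class endothelial markers summed to 1141 CPM in chow and 2496 CPM in the NASH library, and phagocyte markers to 31010 and 18911 CPM, and their part in the Mylip values was not tested. A gate on the phagocyte markers gave 83.5 and 82.2 CPM, so the direction in that class rested on which cells were taken. T or NK cell-like cells had 1 Mylip UMI in 7 chow cells and 16 in 20 NASH diet cells, of which 68.8% lay in 1 cell.

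**Figure D2:**
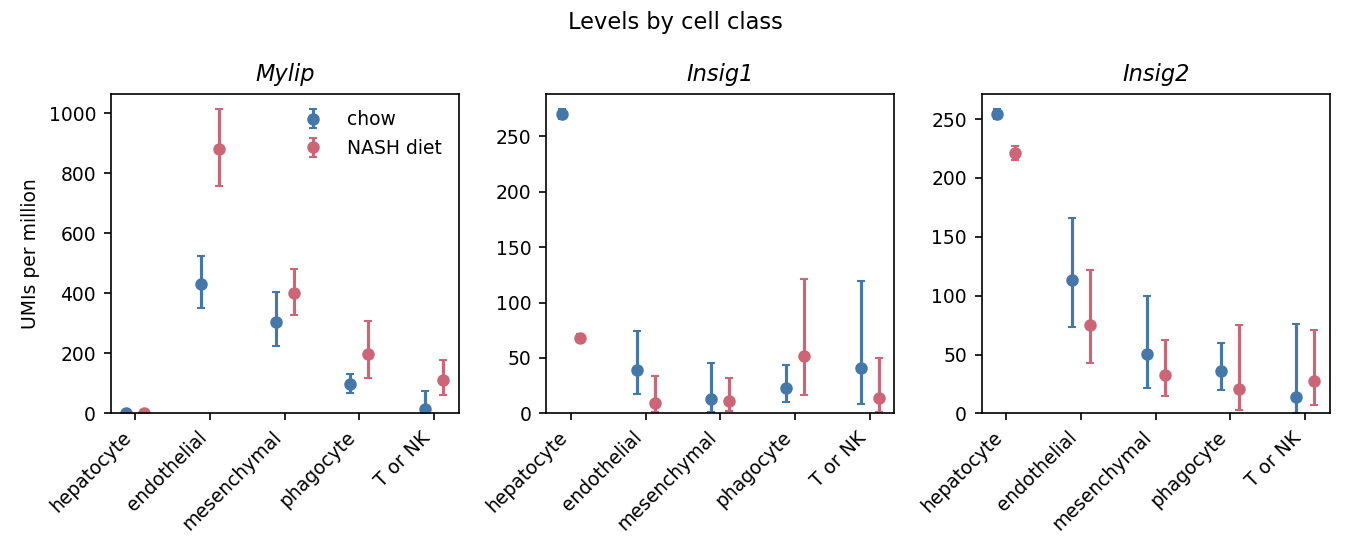
CPM of Mylip, Insig1 and Insig2 in 5 cell classes of each library, with exact 95% Poisson intervals, 1 library per diet and 7 to 50 cells in each class other than hepatocytes. Mylip is near 0 in hepatocyte-like cells and reaches 879 in NASH diet endothelial-like cells, while Insig1 and Insig2 are highest in chow hepatocyte-like cells.

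The other 6 members were read more thinly outside hepatocytes. Insig2 had 26 UMIs in chow endothelial-like cells, 113 CPM (73.8 to 166), and 16 in those of the NASH library, 75.2 CPM (43.0 to 122). Insig1 in chow was at 39.1 CPM (17.9 to 74.2) in endothelial-like cells and 22.9 CPM (10.5 to 43.5) in phagocyte-like cells, both far under hepatocyte-like cells. From the Alb level, hepatocyte RNA would account for 7.33 and 4.92 CPM of these Insig1 values, and for 6.90 and 7.04 CPM of the endothelial Insig2 values. In the NASH library its hepatocyte level of 67.8 CPM lay inside the phagocyte interval of 16.8 to 121 CPM. Stard4 had 65.2 CPM (36.5 to 108) and 79.9 CPM (46.6 to 128) in endothelial-like cells, a range that includes the chow hepatocyte level. Srebf2 had 36.3 CPM (17.4 to 66.8) in NASH diet mesenchymal-like cells, an interval above its level in NASH diet hepatocyte-like cells. Each value in the 3 classes other than hepatocytes rests on 26 or fewer UMIs, and the intervals of the libraries overlap for these 6 members in each.

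Genes of sterol synthesis, which SREBP-2 is known to drive, were lower together with Insig1 and Srebf2 in the NASH library. Of 21 genes of the sterol synthesis list, 17 were at least 2-fold lower in NASH diet hepatocyte-like cells and 0 were higher, with all 21 below 0 and a median log2 ratio of −2.05. Over all 12335 genes 1.08% were at least 2-fold lower and 1.35% higher, the shares to set beside this list and those below. Idi1, an isomerase of the isoprenoid steps, had 449 CPM in chow and 10.1 in the NASH library, a log2 ratio of −4.91. Sqle, the squalene epoxidase, was at 155 and 1.06 CPM (−4.73), and Msmo1, a sterol oxidase, at 374 and 15.6 CPM (−4.20). The summed level of the list was 4064 CPM in chow and 876 in the NASH library. With the pseudocount of 5 CPM, Insig1 at −1.92 lay close to the median of the list, Stard4 at −0.61 nearer 0. That closeness depended on the pseudocount. With 1 CPM the list median was −2.71 and Insig1 was at −1.98, and with 20 CPM they were −1.40 and −1.72.

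**Figure D3:**
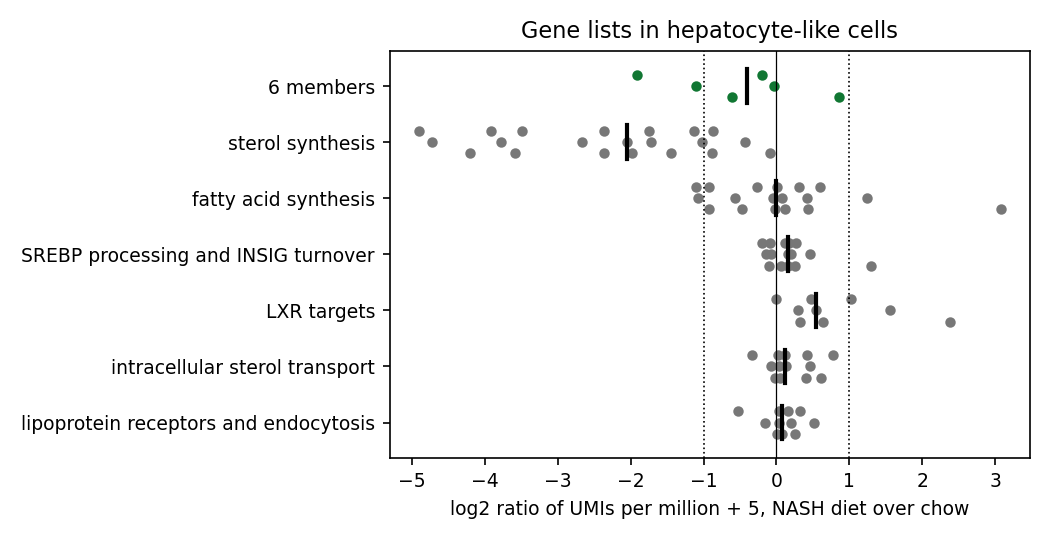
log2 ratio of CPM plus 5, NASH diet over chow, of single genes in hepatocyte-like cells (points) with the median of each list (bars), for 6 members and 6 gene lists. Dotted lines mark 2-fold. The sterol synthesis list has a median of −2.05, and the other 5 lists have medians between −0.01 and 0.54.

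The genes of fatty acid synthesis, which SREBP-1 is known to drive, showed no shared direction. Of 18 genes, 2 were at least 2-fold higher, 2 were at least 2-fold lower, and the median log2 ratio was −0.01. Scd1, the stearoyl-CoA desaturase, was at 1201 CPM in chow and 10171 CPM in the NASH library (3.08), and Thrsp, a lipogenic factor, at 98.3 and 240.0 CPM (1.25). Lpin1, a phosphatidate phosphatase, was at 102 and 45.1 CPM (−1.10), and Acsl3, which activates fatty acids, at 26.6 and 9.96 CPM (−1.08). Acsl3 is named outside the naming rule, after its value was seen, to complete the count.

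The machinery that cleaves SREBPs and turns over INSIGs differed little. Of 15 genes, 1 was at least 2-fold higher, 0 were lower, and the median was 0.15. The exception was Rnf145, a ubiquitin ligase of the endoplasmic reticulum that acts on SCAP, with 3.92 CPM in chow and 16.9 in the NASH library (1.30). The Golgi proteases Mbtps1 and Mbtps2 had 22.4 and 20.8 CPM, and 6.92 and 6.13 CPM, with log2 ratios of −0.09 and −0.10.

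LXR targets were read because Mylip is induced by LXR. The median of the 9 with enough UMIs was 0.54. Of these 9, 3 were at least 2-fold higher and 0 lower, against 1.35% and 1.08% of all 12335 genes. The 3 were Cyp7a1, the rate-limiting enzyme of bile acid synthesis (20.4 to 127 CPM, 2.38), and the sterol exporters Abcg5 (13.6 to 49.7 CPM, 1.56) and Abcg8 (24.6 to 55.4 CPM, 1.03). Abca1, the exporter that loads apolipoprotein A-I, was at 153 and 152 CPM (−0.01). None of 13 genes of intracellular sterol transport and none of 11 lipoprotein receptor and endocytosis genes passed 2-fold on the pseudocount scale, with medians of 0.11 and 0.07. Few of all genes passed 2-fold on that scale, with 1.35% higher and 1.08% lower. That scale understates low genes. Vldlr, the very low density lipoprotein receptor, had 4 UMIs in chow against 51 in the NASH library (0.0852 and 2.25 CPM), a log2 ratio of 4.72 (3.28 to 6.65) without the pseudocount. Gramd1b, a carrier of cholesterol from the plasma membrane, had 1 and 11 UMIs, a plain log2 ratio of 4.51 (1.73 to 9.94). Both are named outside the naming rule, after their values were seen. Npc1, which exports cholesterol from lysosomes, had 41.2 and 73.9 CPM (0.77), higher in the NASH library where Stard4 was lower.

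Position in the liver lobule was read from landmark genes. Hepatocyte-like cells of each library with at least 20 landmark UMIs were cut into 3 equal parts, 655 cells each in chow and 369 each in the NASH library, by the pericentral share of those UMIs. Glul, the pericentral glutamine synthetase, went from 18.2 to 797 CPM across the chow parts and from 9.16 to 2503 CPM across the NASH diet parts. The parts are ranges and not types, since 1126 chow and 660 NASH diet cells lay within 0.05 of a bound. Of the 10 pericentral landmarks, 4 were at least 2-fold higher in the NASH library, so parts were compared within a library.

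Insig2 was higher in the pericentral than in the periportal part in the NASH library, while the ends of the chow range were close. In the NASH library it was at 165 CPM (155 to 174) in the periportal part, 167 CPM (157 to 177) in the middle and 313 CPM (301 to 325) in the pericentral part. In chow the same parts had 266 CPM (258 to 274), 219 CPM (211 to 227) and 274 CPM (266 to 283), lowest in the middle. The periportal level was thus 0.526 times the pericentral one in the NASH library and 0.970 times in chow. Cut into 2 equal parts these values were 0.578 and 0.967.

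Insig1 and Stard4 were lower in the pericentral than in the periportal part in chow. Insig1 was at 293 CPM (285 to 301) in the periportal part, 295 CPM (286 to 304) in the middle and 226 CPM (219 to 233) in the pericentral part. In the NASH library its parts had 64.0, 70.4 and 69.5 CPM, with overlapping intervals. The summed sterol synthesis list had 4321, 4499 and 3423 CPM in chow. In the NASH library it had 818 CPM (797 to 839), 787 CPM (766 to 809) and 997 CPM (976 to 1018), highest in the pericentral part. Stard4 was higher in the periportal than in the pericentral part in both libraries, at 75.2 and 56.2 CPM in chow and at 52.5 and 32.3 CPM in the NASH library. Srebf1 differed little across the chow parts, from 42.7 to 38.8 CPM, and in the NASH library was at 64.2 CPM (58.6 to 70.3) in the periportal and 85.4 CPM (79.3 to 91.8) in the pericentral part. Srebf2 in the NASH library was at 11.6 CPM (9.28 to 14.4) and 16.2 CPM (13.6 to 19.1), and these intervals overlap.

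**Figure D4:**
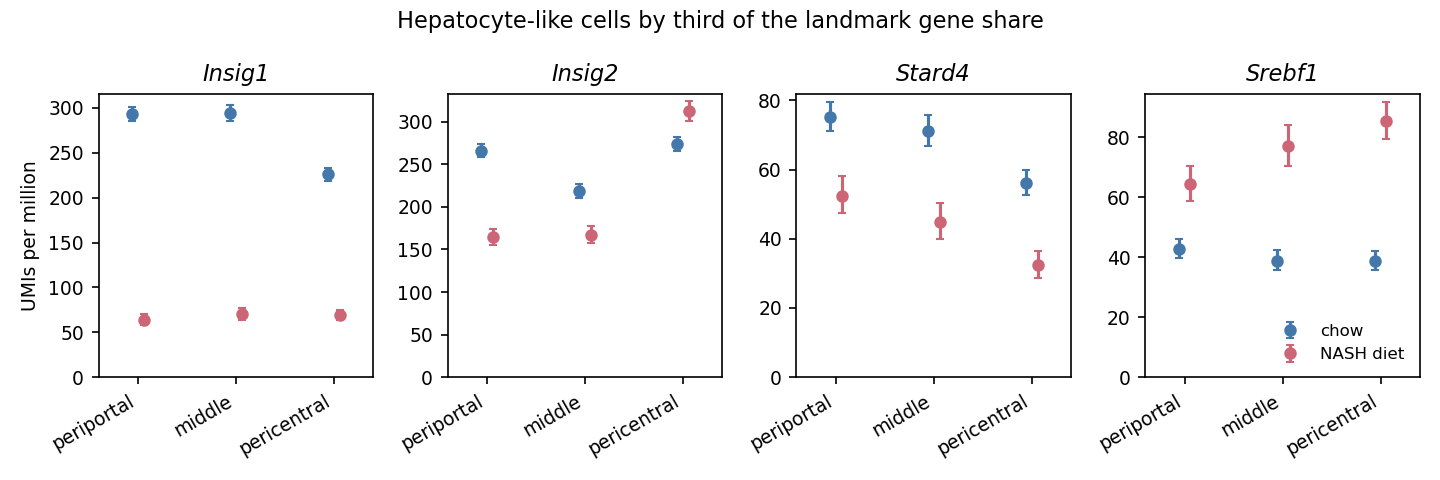
CPM of 4 members in the periportal, middle and pericentral parts of the hepatocyte-like cells of each library, with exact 95% Poisson intervals, 1 library per diet. Insig2 is near 165 in the NASH diet periportal and middle parts and at 313 in the pericentral part, while Insig1 in the NASH library is flat between 64.0 and 70.4.

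Between clusters 0 and 10, and between clusters 2 and 16, Insig1 and Srebf2 kept the same order between the libraries, while Insig2 did not. Pericentral genes led cluster 0 in chow and cluster 10 in the NASH library, and Cyp2f2, a periportal gene, was among the leading genes of clusters 2 and 16. Insig1 was at 231 CPM in cluster 0 and 68.8 in cluster 10, and at 306 in cluster 2 and 70.6 in cluster 16. Insig2 was at 281 and 323 CPM in clusters 0 and 10, and at 253 and 165 CPM in clusters 2 and 16. Srebf2 was at 37.2 and 15.2 CPM, and at 37.7 and 14.1 CPM, in the same pairs. The order did not hold over all clusters. Srebf2 was at 7.15 CPM in chow cluster 5 and 56.4 CPM in NASH diet cluster 12, and Insig1 at 132 and 172 CPM.

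Srebf1, Srebf2 and Scap differed between clusters along with nuclear RNA, and Insig2 less so. Malat1, a long noncoding RNA held in the nucleus, was at 792 to 1691 CPM in chow clusters 0, 2, 4 and 6 but at 4.21 CPM in chow cluster 5, whose 302 cells had a median of 4840.5 UMIs. In that cluster Srebf1 was at 7.57 CPM (4.49 to 12.0), Srebf2 at 7.15 CPM (4.17 to 11.4) and Scap at 7.57 CPM, against 38.2 to 43.4, 37.2 to 45.2 and 33.7 to 40.8 CPM in the other 4. Insig2 was at 183 CPM (166 to 201) there, against 111 to 281 CPM. NASH diet cluster 17, with 145 cells and Malat1 at 31.5 CPM, had Srebf1 at 10.2 CPM, Srebf2 at 4.81 CPM and Insig2 at 184 CPM. Its Srebf1 interval of 6.11 to 15.9 CPM overlaps that of cluster 5. At the other end cluster 12, with 74 NASH diet cells, a median of 4104 UMIs and Malat1 at 47525 CPM, had Srebf1 at 445 CPM (375 to 525), Srebf2 at 56.4 CPM and Insig1 at 172 CPM. Alb was at 4361, 6841 and 7051 CPM in clusters 5, 17 and 12, under its level in every other cluster shown here. Whether these droplets are whole cells was not tested.

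**Figure D5:**
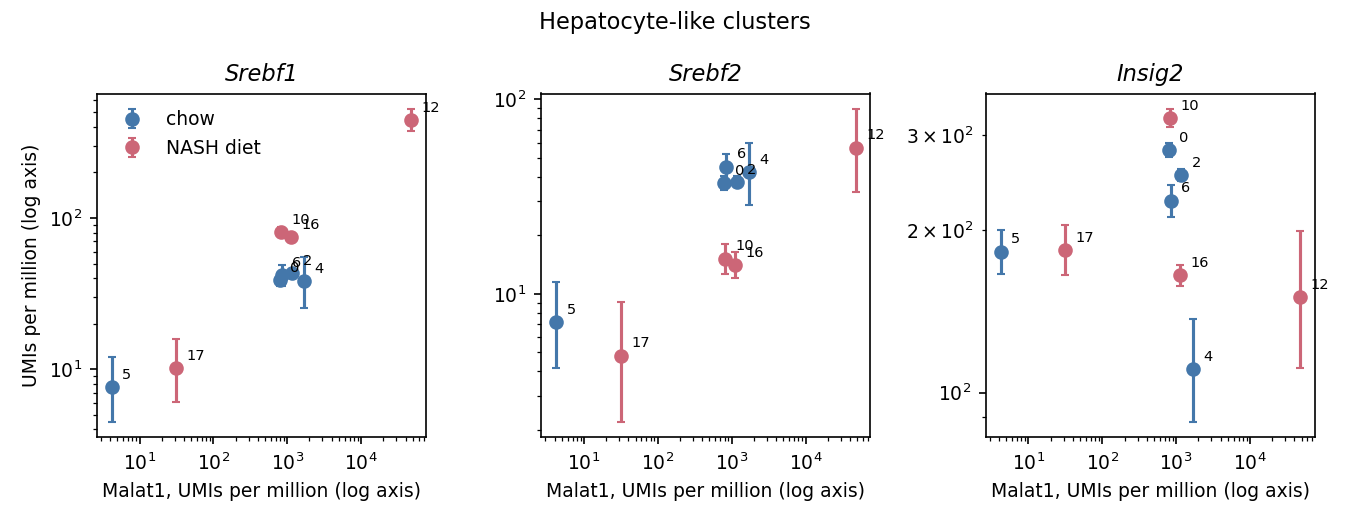
CPM of Srebf1, Srebf2 and Insig2 against Malat1 (both log axes) in hepatocyte-like clusters of at least 50 cells, labelled by cluster number, with exact 95% Poisson intervals. Srebf1 runs from 7.57 in cluster 5 to 445 in cluster 12, while Insig2 stays between 111 and 323.

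The difference between libraries was read again within ranges of Malat1, in cells of at least 5000 UMIs. Between 100 and 700 CPM of Malat1, Srebf1 was at 40.4 CPM in 680 chow cells and 73.5 CPM in 361 NASH diet cells, Srebf2 at 40.5 and 15.2 CPM, and Insig1 at 273 and 64.7 CPM. Between 700 and 1400 CPM, Srebf1 was at 41.0 and 79.1 CPM, Srebf2 at 37.5 and 11.7 CPM, and Insig1 at 288 and 70.7 CPM. In both ranges the intervals of the libraries do not overlap for these 3 genes. Under 100 CPM of Malat1, in 178 chow and 153 NASH diet cells, Srebf2 was at 11.1 CPM (7.24 to 16.2) and 9.40 CPM (5.96 to 14.1), and no difference was detectable. Srebf1 at 9.38 and 32.3 CPM, and Insig1 at 154 and 45.4 CPM, still differed there. Over 1400 CPM of Malat1, in 375 chow and 216 NASH diet cells, Srebf2 was at 35.8 CPM (32.3 to 39.7) and 19.4 CPM (15.5 to 23.9), closer together than in the middle ranges. Srebf1 was at 46.6 and 93.1 CPM there, and Insig1 at 267 and 80.1 CPM.

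The mitochondrial share of UMIs also differed between the libraries. At 10 to 20% mitochondrial UMIs Insig1 was at 288 CPM in chow and 73.8 CPM in the NASH library, Srebf2 at 37.3 and 15.3 CPM, and Srebf1 at 42.7 and 85.3 CPM. At 20 to 30% they were at 256 and 69.5, 39.7 and 14.3, and 40.0 and 79.3 CPM. Under 10%, in 311 chow and 147 NASH diet cells, Srebf2 was at 10.3 and 12.5 CPM, the direction opposite to that over all cells, with overlapping intervals.

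Relations between members from cell to cell were weak. Over 1845 chow cells thinned to 5000 UMIs, Insig1 had the closest relation to the summed sterol synthesis list, with Pearson's r = 0.22 and Spearman's rho = 0.21, as a description. Within cluster 2 r was 0.17 over 931 cells, and thinned to 10000 UMIs it was 0.35 over 1713 cells. In chow cells ordered by the UMIs of that list and cut into 4 equal parts, Insig1 was at 189.6 CPM (172 to 208), 256 CPM (236 to 277), 289 CPM (267 to 312) and 338 CPM (315 to 363). Stard4 was at 55.0, 55.5, 71.6 and 75.9 CPM, and Insig2 at 254, 258, 244 and 252 CPM with overlapping intervals. In the NASH library Insig1 was at 65.9, 70.0, 65.2 and 79.1 CPM, again with overlapping intervals, and r was 0.02 over 1054 cells. That library had a mean near 4 list UMIs per thinned cell, which limits what a relation can show. In thinned chow cells with 0 and with 2 or more Insig1 UMIs, the sterol synthesis list had a mean of 18.6 and 22.5 UMIs. The fatty acid synthesis list had 12.1 and 15.7 in the same cells, so the rise was not particular to sterol synthesis. Cells of 1 library share its depth, its free RNA and its cell quality.

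The genes most like each member over thinned cells were mostly abundant liver transcripts. In chow they were Selenop, Fga and Serpina3k for Insig1, each at r of 0.21, and Serpina3k, Cat and B2m for Insig2, at r from 0.15 to 0.16. For Srebf2 they were Cp, Crp and Fga, and for Srebf1 Apob, Selenop and Plg, all at r of 0.13 or less. Stard4 had Sox9, the sterol synthesis gene Hmgcs1 and Ppp4r3b, at r of 0.09, and Scap had Ahsg, mt-Nd5 and H6pd, at r from 0.09 to 0.10. In the NASH library Srebf1 was most like Egr1, Gm26917 and Zfp36l1, at r from 0.25 to 0.26. Of these, Gm26917 was a leading gene of cluster 12, where Srebf1 was at 445 CPM, and the part of that cluster was not tested. Insig2 in the NASH library was most like Cyp2c29, Cyp3a11 and Mup17, at r of 0.29, and Insig1 like Mug1, Dusp1 and Zcchc6, at r from 0.14 to 0.15. Genes of the Cyp2c, Cyp3a and Mup families can share reads. Srebf2, Scap, Stard4 and Mylip had under 1000 UMIs in the NASH diet cells and were not ranked there.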

How the data were processed

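Single liver cells of mice on chow or a NASH diet were profiled with the 10x Genomics 3′ kit, 1 library per diet. The deposited values are raw UMI counts, whole numbers for each gene in each barcode, which the authors made with Cell Ranger 3.0.2 per the file headers. The submitters' processing notes name Cell Ranger 3.1.0, Seurat and mm10.

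Barcodes with at least 200 genes, 500 UMIs and at most 30% mitochondrial UMIs were kept. Scrublet's own threshold marked 0 doublets, so barcodes were ranked by its score and those with the highest scores, at a rate of 0.8% per 1000 barcodes, were removed, 285 in chow and 64 in the NASH library among those that passed. Cells were clustered with scanpy 1.11.5 (2000 variable genes, 30 components, 15 neighbours, Leiden resolution 1) and named from marker lists, and non-parenchymal cells were clustered again. Counts were summed per class and scaled to CPM. Ratios used log2 of CPM plus 5 over genes with at least 10 UMIs, and past 2-fold was called. Depth was matched by thinning hepatocyte-like cells to 5000 UMIs and others to 1000. Of these steps, the log2 ratios with their intervals and the thinning were tested on simulated data.

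With 1 library per diet no test between diets was made. Intervals are exact at 95% and cover counting error only, and PCR and library error are not in them. Members and gene lists were chosen with earlier results of these data known. In each list the genes named were the 3 with the largest ratio past 2-fold and at least 50 UMIs, besides Mbtps1, Mbtps2, Npc1 and Abca1 in every case, and for each member the 3 genes most correlated with it among those with at least 1000 UMIs. Gene positions are those of GENCODE on GRCm38, and no promoter window of Stard4 was used. Alternatives for the pseudocount, filters, scaling, clustering, doublets and matrix were run. Those on the largest clusters, on barcodes over the mitochondrial limit and, but for the first clustering, on Mylip in endothelial-like cells were chosen after seeing the data.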

Additional observations from a re-analysis of the deposited data

Results flagged for a closer look

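Every class above left out barcodes of 30 to 80% mitochondrial UMIs, though the endothelial and phagocyte marker gates allowed part of that range. Those with at least 5000 UMIs, which were not sorted by cell type, carried a signal for Srebf1. There were 195 such barcodes in chow and 312 in the NASH library. Srebf1 was at 76.7 CPM (67.7 to 86.6) in those of the NASH library, above the 29.4 CPM (22.8 to 37.5) in those of chow. The other members in these barcodes had 34.8 and 9.30 CPM for Srebf2, 190.1 and 57.0 CPM for Insig1, 210.1 and 166 CPM for Insig2, 54.4 and 32.0 CPM for Stard4, and 34.4 and 30.2 CPM for Scap. Log2 ratios in these barcodes were −1.65 for Insig1 and −1.48 for Srebf2, beside 1.25 for Srebf1. Mylip had 11 UMIs in those of chow, 4.91 CPM (2.45 to 8.78), and 9 in those of the NASH library, 2.62 CPM (1.20 to 4.96).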

How the results depend on the processing

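No member past 2-fold changed direction under an alternative. The count of members past 2-fold was 2 in 14 of 15 alternatives, and 1 with a pseudocount of 20 CPM, where Srebf2 was at −0.72. With the mean over cells the members past 2-fold were Insig1, lower, and Srebf1, higher at 1.22, while Srebf2 was at −0.98. The sterol synthesis median of −2.05 was −2.71 with a pseudocount of 1 CPM and −1.40 with 20 CPM, and the other 13 alternatives differed less. Over 14 alternatives Insig1 ran from −2.07 to −1.65, Srebf2 from −1.48 to −0.72, Stard4 from −0.76 to −0.48, Insig2 from −0.35 to −0.14 and Scap from −0.18 to 0.07. Srebf1 ran from 0.68 to 1.25, with 2 of 14 past 2-fold. Those 2 were the mean over cells, at 1.22, and the barcodes over the mitochondrial limit, at 1.25. The mean over cells gives the low-UMI cells of cluster 12 the same weight as deeper cells. Mylip in endothelial-like cells ran from 0.83 to 1.07, with 2 of 6 alternatives past 2-fold. The median of all genes lay between −0.00 and 0.17 across settings. Mylip in hepatocyte-like cells was limited by depth, at 0.04 and from −0.38 to 0.20, with the lowest value in the barcodes over the mitochondrial limit. No paired analysis was possible because each diet had 1 library, and for the same reason no replicate could be left out.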

Other observations

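Droplets of low UMI number that held hepatocyte RNA, left out of the classes above, numbered 1801 in chow and 1039 in the NASH library. Insig1 was at 168 CPM in those of chow and 31.3 CPM in those of the NASH library. Insig2 was at 200.3 and 122 CPM, Srebf2 at 20.1 and 8.30 CPM, and Srebf1 at 14.1 and 15.3 CPM. The log2 ratio of Srebf1 in these droplets without the pseudocount was 0.11 (−0.81 to 1.06), so no direction was detectable. In cycling cells, 19 in chow and 5 in the NASH library, Insig1 was at 181 and 43.7 CPM.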
